A study of Mus musculus with 6 samples.

Results

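Double negative (DN) T cells sorted from ischemic mouse kidneys were compared with CD8 T cells sorted from ischemic kidneys. The 2 libraries were called IR DN and IR CD8, after ischemia-reperfusion. Cells were kept when a barcode held at least 500 detected genes, at most 20% mitochondrial transcripts and at least 1 transcript of Cd3d, Cd3e or Cd3g. This left 3951 of 4705 barcodes in IR DN and 6413 of 7956 in IR CD8, together 10364 of the 49177 cells that passed the same filter in all 6 libraries of the series. The mice were male WT C57BL/6J, 7 to 8 weeks old, with no transgene or deletion. In the IR group both renal pedicles were clamped for 30 min and then released, and the control group is labelled as normal. Live cells that stained for CD45 and the αβ T cell receptor were sorted into CD4+, CD8+ and DN cells, and each sort from each condition gave 1 droplet library. How many mice went into a library, and the hour at which kidneys were taken for sequencing, were not given in the sources used here.

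T cells read antigen through the T cell receptor, with the CD8 coreceptor on cytotoxic cells and CD4 on helper cells. DN T cells carry an αβ receptor but neither coreceptor, are scarce in blood and lymph nodes, and are a regular part of the T cells of the kidney. CD8 cells pass from a naive state, which circulates through lymph nodes with the help of Ccr7, to effector and tissue-resident states that hold granzymes, chemokines and receptors also used by natural killer (NK) cells.

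Expression was taken from unique molecular identifiers (UMIs), each of which stands for 1 captured transcript. All UMIs of a library's kept cells were added up per gene and scaled to CPM, that is, to a fixed total over all genes other than mitochondrial, ribosomal protein genes and Malat1. The sums held 4815075 UMIs in IR DN and 7385782 in IR CD8. The comparison has 1 library a side, so no test was possible and no difference has a replicate check. Values in parentheses are exact 95% intervals, which cover counting error only and not the spread between mice, sorts or runs. Where a pair of values is given without names, IR DN comes first and IR CD8 follows. The words higher and lower are used of genes that differed at least 2-fold and had 10 CPM or more on the side with more. A library with no UMI was set to a floor of 3 counts, which equals 0.623 CPM in IR DN and 0.406 CPM in IR CD8. In summed libraries, fewer cells that express a gene and less RNA per cell cannot be told apart.

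Both libraries were shallow, with a median of 1520 UMIs and 798 genes per cell in IR DN and 1827 UMIs and 730 genes in IR CD8. Ribosomal protein genes took 27.7% of UMIs in IR DN and 42.1% in IR CD8. The deposited lists of the 2 libraries shared 168 barcode sequences, of which 13 were kept in both. With all barcodes shared among IR libraries left out, 676 genes were higher and 376 lower, against 680 and 373 with them. Marker genes of other cell types were summed in both libraries. The level of 11 myeloid genes was 153 CPM in IR DN and 173 in IR CD8, of which Cst3 made up 132 and 139. The summed level of 6 B cell genes was 116 and 142 CPM, of 6 endothelial genes 49.0 and 77.9 CPM and of 7 tubule genes 3.12 and 2.44 CPM. Of the 3 B cell genes at 10 CPM, 1 was lower in IR DN, with a log2 ratio of -4.08, and 2 were within 2-fold. Kdr, which defines endothelial cells, was at 0 in both. The 5 erythroid genes summed to 21.2 CPM in IR DN and 427 in IR CD8, where 97.8% of the UMIs of the globin gene Hbb-bs came from 10 cells. The part of these cells in the results was not tested. With every cell that held a marker of another cell type left out, which kept 2729 and 4288 cells, 718 genes were higher and 384 lower.

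The labels of the sort were examined first, since CD8 was the gate. Cd8a (chromosome 6, 71373427 to 71379173) encodes the α chain of the coreceptor and had 0 UMIs in IR DN, which allows up to 0.623 CPM, against 406 CPM (391 to 420.3) in IR CD8. It was thus at least 651-fold lower in IR DN. Cd8b1, the β chain, was at 2.08 CPM in IR DN (0.996 to 3.82) and 1121 CPM in IR CD8 (1097 to 1145). Cd4 had 3 UMIs in each library and was at 147 CPM in IR CD4. Cells with a UMI were also counted after each cell was thinned to 500 UMIs, so that depth was equal. The median number of usable UMIs per cell before thinning was 1061 in IR DN and 973 in IR CD8. A Cd8b1 UMI was found in 0.127% of IR DN cells (0.0411 to 0.295), 39.8% of IR CD8 cells (38.6 to 41.0) and 0.32% of IR CD4 cells, and in 0.228% and 62.7% of IR DN and IR CD8 cells without thinning. These genes follow the antibodies used for sorting and are a check of the labels, not a result.

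The 7 listed genes of the T cell receptor complex were within 2-fold. Of these, Cd3d, Cd3e and Cd3g were also used to keep cells, so that their levels follow in part from the filter. Trac, the constant part of the α chain, was at 799 CPM in IR DN (774 to 825) and 849 CPM in IR CD8 (828 to 869.9). Cd3e was at 906 and 1112 CPM and Cd3g at 1484 and 1469 CPM. Cd247, the ζ chain that carries most of the signal, had the widest difference, at 124 and 237 CPM, and was at least 2-fold lower under TMM scaling, which sets libraries by a trimmed mean of gene ratios. Of 14 genes that act just below the receptor, 13 were within 2-fold and 1 was lower in IR DN, whereas 3 were lower under TMM scaling and 2 higher and none lower with all UMIs in the total. Of all genes 11.7% differed at least 2-fold, so the count says nothing particular of these genes. The gene lower here was Ptpn6, the phosphatase SHP-1, at 43.2 CPM in IR DN (37.5 to 49.5) and 88.1 CPM in IR CD8 (81.5 to 95.2), and it was under 2-fold with all UMIs in the total, with at least 3 Cd3 UMIs per cell and after thinning. The adaptor Lat was at 313 and 578 CPM, the kinase Zap70 at 149 and 90.7 CPM and the phosphatase Ptpn22 at 918 and 499 CPM. Signs of differences under 2-fold depend on how libraries are scaled and are not read here as a direction.

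Of 8989 genes at 10 CPM or more in either library, 680 (7.56%) were higher in IR DN and 373 (4.15%) were lower, so that 11.7% differed in either direction. Over all genes the median log2 ratio was 0.11. At 4-fold the numbers were 180 and 130, and at 8-fold 83 and 62. The split between directions depended on scaling. TMM scaling, which trims the extreme genes before it sets the total, moved the median by -0.17 and gave 511 higher and 487 lower genes, a share of 51.2% higher against 64.6%. Counting the ribosomal, mitochondrial and Malat1 UMIs in the total moved the median by 0.32 and gave 990 and 186, a share of 84.2% higher.

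**Figure D1:**
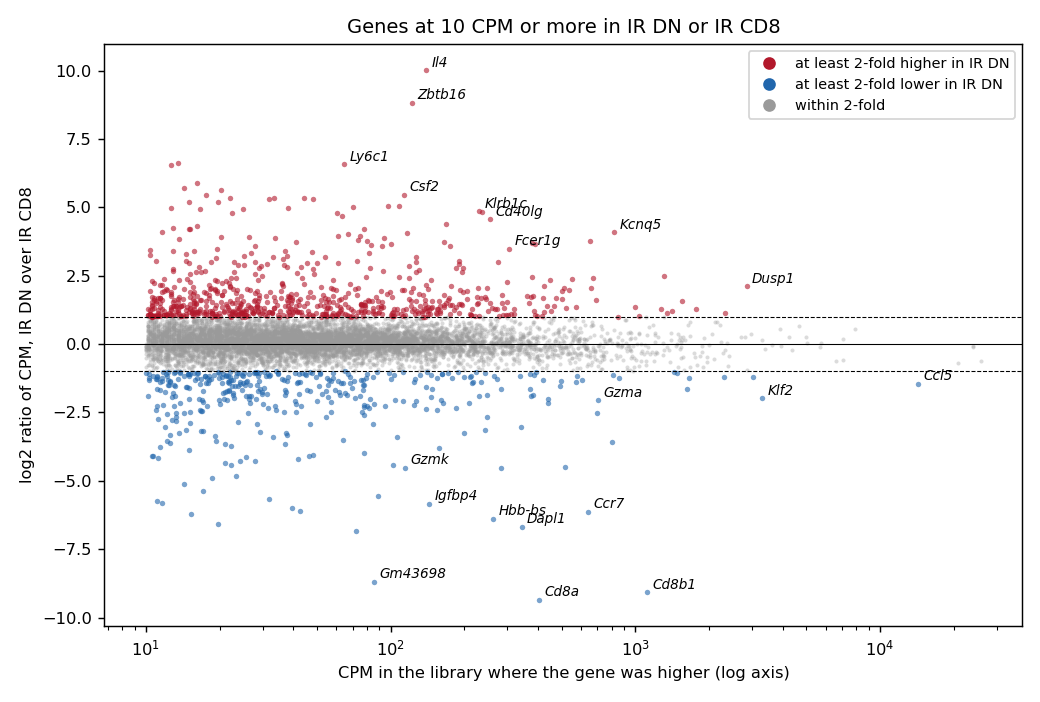
Each point is 1 of 8989 genes, with CPM in the library where it was higher on a log x axis and the log2 ratio of IR DN over IR CD8 on the y axis. Colours mark the 680 genes at least 2-fold higher and the 373 at least 2-fold lower in IR DN, which lie outside the lines at 2-fold.

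The largest ratios at 50 CPM or more were listed by rule. In favour of IR DN, the 15 largest were those of Il4, Zbtb16, Ly6c1, Csf2, Tcrg-C4, Klra1, Ccl1, Klrb1c, Socs2, Tcrg-C1, Rbpms, Cd40lg, Krt83, Tmem176a and Kcnq5. In favour of IR CD8, beside the sort genes, they were those of Gm43698, Gm44174, Dapl1, Hbb-bs, Ccr7, Igfbp4, Spp1, Fam169b, Gzmk, Fam241a, Ifngr2, Tdrp, Actn1, Gm8369 and Gm19705. Several of them rest on few cells. Of the IR CD8 UMIs of Spp1, which encodes the secreted protein osteopontin, 99.4% came from 10 cells, and Spp1 was under 2-fold with the 5% of barcodes with most UMIs left out or with the cells that held markers of other cell types left out. Hbb-bs was under 2-fold without the cells that held Ccr7 or Lef1. Of the IR DN UMIs, 10 cells gave 79.5% for Ccl1 and 44.6% for Csf2. Gm44174 had 0 UMIs in IR DN against 532 in IR CD8, and Gm43698 had 1 against 632.

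Genes of naive and recirculating T cells were mostly lower in IR DN. Of 15 listed genes, 11 were at least 2-fold lower, beside 4.15% of all genes, 4 were within 2-fold and none was higher. The median log2 ratio was -1.98, against 0.11 over all genes. Ccr7 (chromosome 11, 99144196 to 99155077), the chemokine receptor that guides T cells into lymph nodes, was at 9.14 CPM in IR DN (6.64 to 12.3) and 643 CPM in IR CD8 (625 to 662). It was 70.4-fold lower in IR DN (52.3 to 97.0), with 237 CPM in IR CD4. S1pr1, the receptor through which T cells leave lymphoid organs, was at 42.2 CPM in IR DN (36.6 to 48.4) and 342 CPM in IR CD8 (329 to 355), 8.11-fold lower in IR DN (7.03 to 9.40). In both of these genes of lymph node traffic IR CD4 lay between the other subsets.

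Some transcription factors of the group were also lower. Klf2, which keeps S1pr1 active, was at 835 CPM in IR DN (809 to 861) and 3288 CPM in IR CD8 (3246 to 3329), 3.94-fold lower in IR DN (3.81 to 4.07). Tcf7, the factor TCF-1 of naive and memory cells, was at 98.6 and 438 CPM, 4.44-fold lower in IR DN (4.03 to 4.90). Its relative Lef1 was at 245 and 605 CPM, 2.47-fold lower in IR DN (2.32 to 2.64), but was under 2-fold when all UMIs were counted in the total. Dapl1 was at 3.32 and 343 CPM, 103-fold lower. Igfbp4, a secreted protein that binds insulin-like growth factors, was at 2.49 and 143 CPM, 57.5-fold lower, from 12 UMIs in IR DN. Actn1, an actin crosslinker, was at 11.4 and 157 CPM, 13.8-fold lower. Of the 4 genes within 2-fold, Il7r, the interleukin-7 receptor, was at 677 and 709 CPM, Satb1, an organizer of chromatin, at 553 and 522 CPM, and Bach2, a repressor of effector genes, at 276 and 402 CPM. Il7r thus did not share the difference of Ccr7.

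The genes were also counted in single cells. After thinning, a Ccr7 UMI was found in 0.506% of IR DN cells (0.309 to 0.781), 25.1% of IR CD8 cells (24.0 to 26.1) and 10.2% of IR CD4 cells. Without thinning the shares were 0.683% and 37.3% in IR DN and IR CD8. Among IR CD8 cells with a Ccr7 UMI, 18.1% had a UMI of the effector chemokine Ccl5, against 59.7% of those without. In IR DN, 16 of the 20 cells with a Ccr7 UMI also had one of Ccl5, against 50.6% of the cells without. Klf2 was found in 23.4% of IR DN cells (22.1 to 24.8), 64.5% of IR CD8 cells (63.3 to 65.7) and 45.9% of IR CD4 cells. For comparison, 837 barcodes of the 2 libraries passed the other filters without a Cd3 UMI, at a median of 816 usable UMIs. They had a UMI of Ccr7 in 13.98%, of Klf2 in 39.9%, of Ccl5 in 23.3%, of Dusp1 in 42.3% and of Klrb1c in 2.87% after thinning. As 10.2% also had Cd8b1, they held T cell transcripts and are no clean measure of free RNA, and a share below theirs is not read here as expression. Each comparison with IR CD8 is also a comparison with its cells that held Ccr7 or Lef1, called naive transcripts below. The term names these transcripts and not a naive state. Without thinning, Lef1 was found in 23.0% of IR DN cells and 40.7% of IR CD8 cells. The IR DN cells with these transcripts thus mostly held Lef1 and not Ccr7. When all cells with a UMI of Ccr7 or Lef1 were left out, which kept 3026 IR DN and 2788 IR CD8 cells, 674 genes were higher and 327 lower. Of these, 491 and 227 were among the 680 and 373 of the full comparison. In the naive list 13 genes then reached 10 CPM, of which 7 were lower and 2 higher. Ccr7 and Lef1 have no value there by construction, and both were among the 11 lower genes.

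NK receptors were mostly higher in IR DN. Of 28 listed genes, 18 reached 10 CPM, and of these 15 were at least 2-fold higher, 3 were within 2-fold and none was lower. Of all genes 7.56% were higher. The median log2 ratio of the 18 was 2.39. Klrb1c (chromosome 6, 128778485 to 128789215) encodes NK1.1 and was at 231 CPM in IR DN (217 to 245) and 7.99 CPM in IR CD8 (6.08 to 10.3), 28.9-fold higher in IR DN (22.2 to 38.2). IR CD4 lay at 67.3 CPM. Of the Ly49 receptors, which read classical MHC class I molecules, Klra1 was at 98.0 CPM in IR DN (89.4 to 107) and 2.98 CPM in IR CD8 (1.87 to 4.51), 32.9-fold higher, and Klra7 at 79.5 and 14.6 CPM, 5.44-fold higher, though under 2-fold without the cells that held Klrb1c or Fcer1g. Klra5, Klra9, Klra3 and Klra6 were higher by 13.2, 8.66, 3.25 and 2.53-fold. Since members of the Klra and Klrc families are alike in sequence, the value of any 1 of them is uncertain.

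The NKG2 receptors, which read stress ligands or nonclassical class I molecules, differed among themselves. Klrk1, the activating receptor NKG2D, was at 448 CPM in IR DN (429 to 467) and 88.7 CPM in IR CD8 (82.0 to 95.7), 5.05-fold higher in IR DN (4.63 to 5.52). Klrc1, the inhibitory NKG2A, was at 245 and 79.2 CPM, 3.097-fold higher, and Klrc2, the activating NKG2C, at 118 and 16.4 CPM, 7.23-fold higher. Klrd1 encodes CD94, the partner that both need at the surface, and did not follow them, at 542 and 738 CPM. Klre1 was at 146 and 29.0 CPM, 5.05-fold higher. Cd160 was at 115 and 101 CPM and Klrg1 at 8.31 and 14.2 CPM, and both were within 2-fold. With the cells that held naive transcripts left out, Klrc1 fell under 2-fold while 13 of 18 receptors were higher, and 1 was lower.

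The signalling adaptors of these receptors also differed. Of 10 listed adaptors, 6 reached 10 CPM, of which 3 were higher, beside 7.56% of all genes, and 3 within 2-fold. Fcer1g (chromosome 1, 171229572 to 171234365), the γ chain of Fc receptors that carries an ITAM signalling motif, was at 305 CPM in IR DN (289.7 to 321) and 27.2 CPM in IR CD8 (23.6 to 31.2). It was 11.2-fold higher in IR DN (9.67 to 13.1), and IR CD4 was at 26.8 CPM. Tyrobp, which encodes DAP12, was at 58.2 and 11.5 CPM, 5.05-fold higher. Clnk, an adaptor of the SLP-76 family, was at 33.2 and 0.812 CPM, 40.9-fold higher, from 6 UMIs in IR CD8. Hcst encodes DAP10, the partner of NKG2D, and was within 2-fold at 1331 and 1525 CPM. The NK marker Ncr1 was at 7.27 and 0.271 CPM, below the level needed for a call, and Eomes, a factor of NK and CD8 cells, was lower at 3.12 and 33.0 CPM. The 5 listed NK markers summed to 76.2 CPM in IR DN and 48.9 in IR CD8, and the part of NK cells in the result was not tested.

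Within IR DN these receptors were spread unevenly over cells. After thinning, Klrb1c was found in 9.67% of IR DN cells (8.76 to 10.6), 0.374% of IR CD8 cells (0.24 to 0.556) and 3.05% of IR CD4 cells, and Fcer1g in 10.1% of IR DN cells (9.22 to 11.1), 0.858% of IR CD8 cells (0.647 to 1.11) and 0.99% of IR CD4 cells. Without thinning the shares in IR DN and IR CD8 were 20.5% and 0.842% for Klrb1c and 15.9% and 1.33% for Fcer1g. Of the 401 IR DN cells with Fcer1g, 19.5% also had Klra1, against 1.97% of the other cells. Spry2 was found in 26.7% of them and in 11.9% of the others. Zbtb16 went the other way, in 1.75% of cells with Fcer1g and 6.06% of those without. Klrb1c and Fcer1g were found together in 70 cells, which is 18.3% of the 382 cells with Klrb1c, against 9.27% of the cells without it. These are descriptions of sparse counts within 1 library. With every cell that held Klrb1c or Fcer1g left out, which kept 2743 IR DN and 6287 IR CD8 cells, 761 genes were higher and 400 lower, and 11 of the 15 other receptors at 10 CPM were higher.

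Sequences upstream of 3 members were printed to show what promoters of genes that differed hold. They come from RefSeq (GRCm38.p6), run 5′ to 3′ on the strand of the gene and cover the 250 bases before its start, so that the RefSeq start is the next base. The RefSeq starts of Klrb1c and Xcl1 lie inside the wider GENCODE bounds given for these genes. Capitals mark short motifs on either strand. These are TGTGGT for the RUNX family, TGANTCA for AP-1, TCACACC for T-box factors and ACTTCCT for ETS factors, and no 2 of them overlap here. CTTTGA for TCF and LEF factors and GGGCGTG for KLF factors were also searched and not found in these sequences. Klrb1c (chr6:128788642-128788891, minus strand) and Xcl1 (chr1:164935523-164935772, minus strand) were higher in IR DN, and Gzmb (chr14:56262335-56262584, minus strand) was lower.
Klrb1c: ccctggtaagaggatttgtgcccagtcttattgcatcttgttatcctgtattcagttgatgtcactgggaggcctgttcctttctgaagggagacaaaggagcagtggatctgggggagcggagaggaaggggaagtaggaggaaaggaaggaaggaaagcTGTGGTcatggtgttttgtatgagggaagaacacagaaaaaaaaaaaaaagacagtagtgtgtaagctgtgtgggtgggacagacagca
Xcl1: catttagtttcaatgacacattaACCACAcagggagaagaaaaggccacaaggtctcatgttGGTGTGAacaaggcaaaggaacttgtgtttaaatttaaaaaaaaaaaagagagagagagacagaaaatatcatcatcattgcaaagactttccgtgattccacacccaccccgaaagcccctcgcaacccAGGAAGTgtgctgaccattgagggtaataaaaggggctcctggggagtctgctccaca
Gzmb: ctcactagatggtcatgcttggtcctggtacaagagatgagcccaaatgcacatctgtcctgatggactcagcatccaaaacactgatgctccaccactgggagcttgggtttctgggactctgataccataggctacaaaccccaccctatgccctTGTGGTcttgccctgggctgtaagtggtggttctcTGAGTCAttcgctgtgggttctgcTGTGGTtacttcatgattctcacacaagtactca
The Klrb1c sequence held a RUNX match that begins 89 bases before the start. Xcl1 held a RUNX, a T-box and an ETS match at 227, 188 and 58 bases before the start, all with the letters on the opposite strand. Gzmb held RUNX matches at 93 and 34 bases and an AP-1 match at 58 bases before the start. Of 7085 promoters of genes at 10 CPM, 11.0% held the RUNX letters, 3.74% AP-1, 8.16% ETS, 2.77% T-box, 10.7% TCF or LEF and 14.2% KLF letters. Of the other genes looked at, Gzma held a RUNX match, and Actn1 and Igfbp4, both lower in IR DN, held none of the 6 motifs. Among genes higher in IR DN the RUNX letters were in 71 of 493 promoters (14.4%) and among those lower in 36 of 277 (13.0%). AP-1 letters were in 6.90% and 2.17%, ETS in 10.3% and 10.5%, T-box in 3.04% and 1.81%, TCF or LEF in 12.98% and 11.2% and KLF in 10.1% and 12.6%. A match describes these letters and says nothing of binding.

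**Figure D2:**
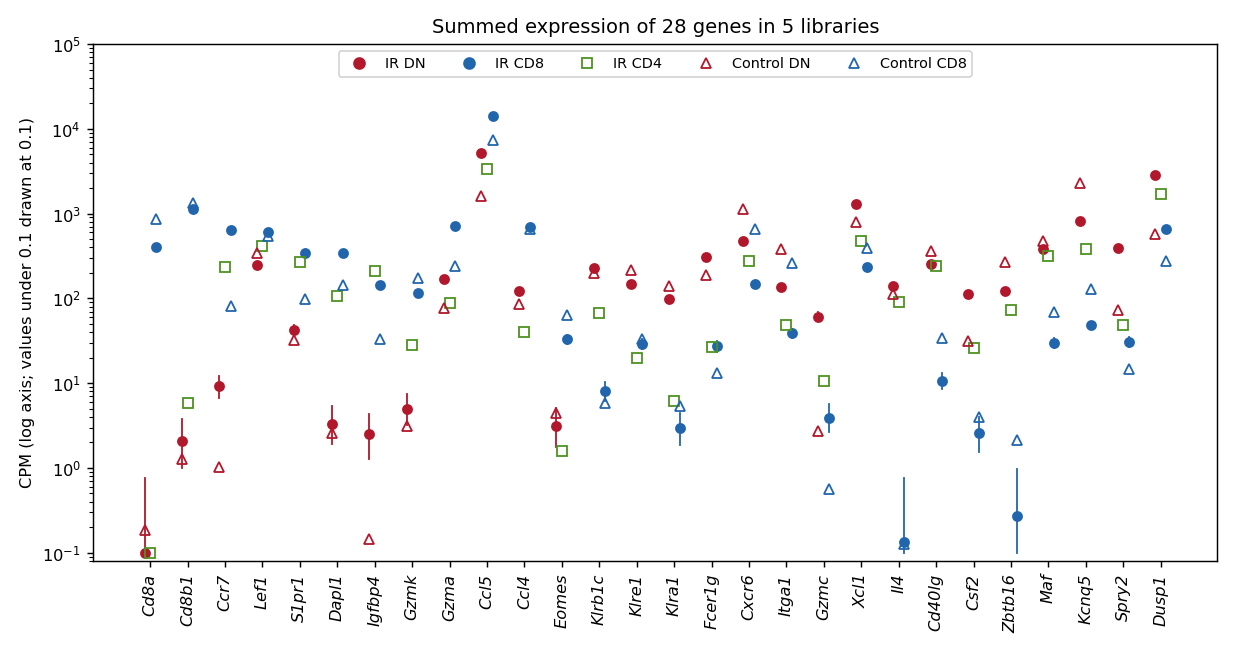
Summed expression in CPM (log axis) of 28 genes in IR DN, IR CD8, IR CD4, control DN and control CD8, 1 point per library, with exact 95% intervals of the counts as vertical lines for IR DN and IR CD8. Values under 0.1 CPM, among them Cd8a at 0 in IR DN, are drawn at 0.1, and Ccr7 stands at 9.14 CPM in IR DN and 643 in IR CD8, and Klrb1c at 231 and 7.99.

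Tissue residency genes were mostly higher in IR DN. Of 12 listed genes 8 were higher and 1 was lower, beside 7.56% and 4.15% of all genes. The other 3 were within 2-fold, and the median log2 ratio of the list was 1.63. Cxcr6, a chemokine receptor of resident lymphocytes, was at 475 CPM in IR DN (456 to 495) and 149 CPM in IR CD8 (140.3 to 158), 3.19-fold higher. Itga1, the collagen-binding integrin CD49a, was at 136 CPM in IR DN (126 to 147) and 38.9 CPM in IR CD8 (34.5 to 43.6), 3.51-fold higher. The adhesion receptor Cd44 was at 235 CPM in IR DN (221 to 249) and 72.7 CPM in IR CD8 (66.7 to 79.1), 3.23-fold higher. The gene that went the other way was Itgae, the integrin CD103 that binds E-cadherin, at 3.95 CPM in IR DN (2.38 to 6.16) and 17.2 CPM in IR CD8 (14.3 to 20.5), 4.36-fold lower. Cd69, an early activation and retention receptor, was within 2-fold at 476 and 602 CPM. Rgs1 and Rgs2, which damp signalling of chemokine receptors, were both higher, at 1554 and 518 CPM for Rgs1 and at 661 and 159 CPM for Rgs2. Zfp683, the residency factor Hobit, was at 12.9 and 1.90 CPM and Bhlhe40 at 534 and 137 CPM. With the cells that held Ccr7 or Lef1 left out, 6 of 11 genes were higher, and Cxcr6, Itga1 and Itgae were under 2-fold.

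The cytotoxic genes went both ways. Of 13 listed genes, 5 were higher in IR DN and 4 were lower, beside 7.56% and 4.15% of all genes. The other 4 were within 2-fold, and the median log2 ratio of the list was 0.30. All 4 lower genes were granzymes, the proteases of killer granules. Gzmk was at 4.98 CPM in IR DN (3.19 to 7.42) and 114 CPM in IR CD8 (107 to 122), 22.9-fold lower in IR DN (15.3 to 36.0). Gzmm was at 2.28 and 41.7 CPM, 18.3-fold lower. Gzmb was at 91.8 CPM in IR DN (83.4 to 101) and 283 CPM in IR CD8 (271 to 296), 3.09-fold lower, though under 2-fold after thinning of all cells to 500 UMIs. Gzma was at 170.1 CPM in IR DN (159 to 182) and 705 CPM in IR CD8 (686 to 725), 4.15-fold lower, and 10 cells gave 49.8% of its UMIs in IR DN. Gzmc was higher, at 61.1 and 3.93 CPM, with 59.2% of the IR DN UMIs in 10 cells. Perforin (Prf1) was at 20.8 and 35.3 CPM and Nkg7, a granule membrane protein, at 1050.0 and 1790.1 CPM, both within 2-fold.

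The other higher members act on granules or on death receptors. Lyst, a regulator of lysosome traffic, was at 670.0 CPM in IR DN (647 to 694) and 127 CPM in IR CD8 (119 to 135), 5.28-fold higher in IR DN (4.91 to 5.69). Serpinb9, an inhibitor of granzyme B, was at 176 CPM in IR DN (164 to 188) and 40.1 CPM in IR CD8 (35.6 to 44.9), 4.39-fold higher. Serpinb6b was at 138 and 45.5 CPM, 3.04-fold higher. Fasl, the ligand of the death receptor Fas, was at 147 and 49.7 CPM, 2.97-fold higher. It fell under 2-fold when cells with naive transcripts were left out, whereas none of the granzymes did. In that setting 4 genes of the cytotoxic list were higher and 6 lower, and the median log2 ratio turned to -0.12.

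Cytokine genes differed in both directions. Of 20 listed genes, 11 reached 10 CPM, of which 6 were higher and 1 was lower, beside 7.56% and 4.15% of all genes. The other 4 were within 2-fold, and the median log2 ratio of the 11 was 1.14. The number higher was 5 under TMM scaling, 8 with all UMIs in the total and 4 without the cells that held naive transcripts. Il4 (chromosome 11, 53602982 to 53618669), the cytokine that drives type 2 responses, was at 139 CPM in IR DN (129 to 150.3) and 0.135 CPM in IR CD8 (0.00343 to 0.754). This was 671 UMIs against 1, a ratio of 1029 with a counting interval of 184 to 40713. IR CD4 was at 91.1 CPM. Ifng, interferon γ, was at 999.6 CPM in IR DN (972 to 1028) and 386 CPM in IR CD8 (372 to 400.0), 2.59-fold higher, and was under 2-fold without the cells that held naive transcripts. Tnf was within 2-fold at 101 and 54.7 CPM. Csf2, the growth factor GM-CSF, was at 114 and 2.57 CPM, 44.2-fold higher.

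Other members of the cytokine list also went both ways. Cd40lg, through which T cells help B cells and dendritic cells, was at 254 CPM in IR DN (239.8 to 268) and 10.7 CPM in IR CD8 (8.47 to 13.3), 23.7-fold higher in IR DN (18.9 to 30.2), with 242 CPM in IR CD4. After thinning it was found in 11.3% of IR DN cells (10.4 to 12.4), 0.437% of IR CD8 cells (0.29 to 0.63) and 10.6% of IR CD4 cells, and without thinning in 23.4% and 0.982% of IR DN and IR CD8 cells. Fgl2, a fibrinogen-like protein that T cells secrete, was at 275 and 34.8 CPM, 7.91-fold higher. Tnfsf8, the ligand of CD30, was the member lower in IR DN, at 16.6 and 54.3 CPM. Il17a had 3 UMIs in IR DN and 14 in IR CD8, and Il10 had 8 and 17.

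Chemokines went both ways. Of 6 genes at 10 CPM, 2 were higher and 3 lower, beside 7.56% and 4.15% of all genes. The median log2 ratio of the 6 was -0.93. Xcl1 (chromosome 1, 164931644 to 164935527), which draws cross-presenting dendritic cells, was at 1309.8 CPM in IR DN (1278 to 1343) and 232 CPM in IR CD8 (221 to 243), 5.65-fold higher in IR DN (5.36 to 5.97). Ccl1, a chemokine of activated T cells, was at 70.0 and 2.17 CPM, 32.3-fold higher. Ccl5, Ccl4 and Ccl3, which draw effector and myeloid cells, were lower. Ccl5 was at 5238 CPM in IR DN (5173 to 5303) and 14270.3 CPM in IR CD8 (14184 to 14357), 2.72-fold lower, Ccl4 at 122 and 698 CPM, 5.71-fold lower, and Ccl3 at 11.2 and 84.6 CPM, 7.55-fold lower. A Ccl5 UMI was found in 50.7% of IR DN cells (49.1 to 52.3), 49.3% of IR CD8 cells (48.0 to 50.5) and 32.5% of IR CD4 cells after thinning and in 61.1% and 53.8% of IR DN and IR CD8 cells without it. After thinning the IR DN and IR CD8 intervals overlap, so the lower CPM of IR DN did not come with a smaller share of cells with a UMI. No order of cells is read from these shares. Xcl1 was found in 34.6% of IR DN cells (33.1 to 36.1), 6.46% of IR CD8 cells (5.87 to 7.08) and 12.6% of IR CD4 cells, and in 50.5% and 10.1% of IR DN and IR CD8 cells without thinning. Of the receptors, Ccr2 was at 122 and 40.8 CPM and Ccr4 at 11.6 and 0.677 CPM, both higher, though Ccr2 was under 2-fold without the cells that held naive transcripts, whereas Cx3cr1 at 8.93 and 29.9 CPM and Cxcr5 at 10.2 and 25.9 CPM were lower. Cxcr3, a receptor of inflamed tissue, was within 2-fold at 131 and 81.0 CPM.

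**Figure D3:**
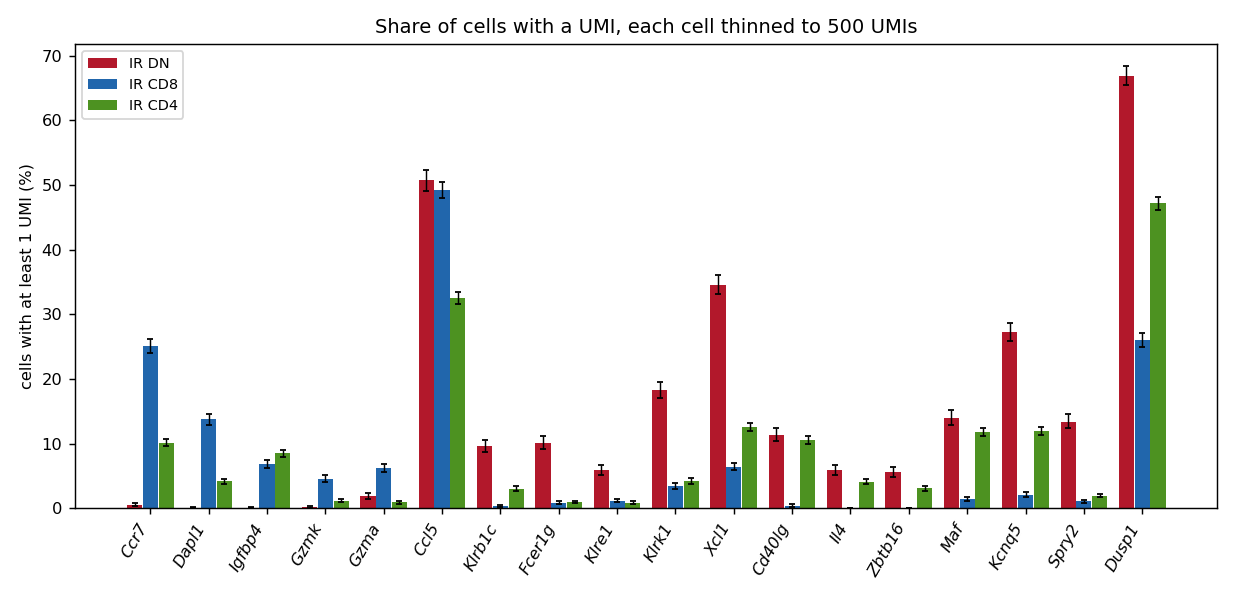
Share of cells with at least 1 UMI of a gene (percent), with each cell thinned to 500 UMIs, in IR DN, IR CD8 and IR CD4, with exact 95% binomial intervals of counting error as whiskers. Ccr7 was found in 0.506% of IR DN and 25.1% of IR CD8 cells, and Klrb1c in 9.67% and 0.374%.

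Coinhibitory receptors showed no common direction. Of 8 genes at 10 CPM, 3 were higher and 1 was lower, beside 7.56% and 4.15% of all genes, and 4 were within 2-fold. Pdcd1, which encodes PD-1, was at 22.8 CPM in IR DN (18.8 to 27.5) and 22.6 CPM in IR CD8 (19.3 to 26.3). Tigit was at 31.8 CPM in IR DN (26.9 to 37.2) and 14.2 CPM in IR CD8 (11.6 to 17.2), 2.24-fold higher, and Cd101 at 33.6 CPM in IR DN (28.7 to 39.2) and 11.2 CPM in IR CD8 (8.95 to 13.9), 2.99-fold higher. Lag3 was lower, at 1.87 and 13.3 CPM, from 9 UMIs in IR DN. Ctla4 was at 72.3 and 139 CPM. Tigit fell under 2-fold when at least 3 Cd3 UMIs were required of a cell, or when cells with naive transcripts were left out. Without those cells 2 genes of the list were higher and 3 lower.

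Of 11 costimulatory receptors 5 were higher and 2 lower, beside 7.56% and 4.15% of all genes. The other 4 were within 2-fold, and the median log2 ratio of the 11 was 0.90. Icos was at 368 CPM in IR DN (351 to 385) and 129 CPM in IR CD8 (121 to 138), 2.85-fold higher, and Tnfrsf18, which encodes GITR, at 383 and 113 CPM, 3.39-fold higher. Tnfrsf25, a death domain receptor that costimulates T cells, was at 50.3 and 6.50 CPM, 7.73-fold higher. In these 3 genes IR CD4 was at 339, 375 and 50.3 CPM. Slamf6 was lower, at 16.8 and 80.2 CPM, 4.76-fold lower, and so was Crtam, at 7.06 and 33.8 CPM. Cd28 was within 2-fold at 609 and 335 CPM.

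Cytokine receptors differed, among others, at the receptors for interleukin 2, interleukin 12 and interferon γ. Of 16 genes at 10 CPM, 7 were higher and 1 was lower, beside 7.56% and 4.15% of all genes, and 8 were within 2-fold. Il2ra, the high-affinity α chain CD25, was at 94.3 CPM in IR DN (85.8 to 103) and 6.36 CPM in IR CD8 (4.68 to 8.46), 14.8-fold higher in IR DN (11.0 to 20.5). Il2rb was at 522 and 207 CPM, 2.52-fold higher, but was under 2-fold without the cells that held naive transcripts, and the common γ chain Il2rg was within 2-fold at 369.7 and 279.6 CPM. Il12rb2 was at 196 and 31.4 CPM, 6.25-fold higher. Both chains of the interleukin-18 receptor, Il18r1 and Il18rap, were 2.28-fold higher and 2.95-fold higher. The chains of the interferon γ receptor went opposite ways. Ifngr1, which binds the cytokine, was at 1272 CPM in IR DN (1241 to 1305) and 517 CPM in IR CD8 (501 to 534), 2.46-fold higher. Ifngr2, the signalling chain, was at 4.78 CPM in IR DN (3.03 to 7.17) and 102 CPM in IR CD8 (95.2 to 109.9), 21.4-fold lower in IR DN (14.2 to 34.0).

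Among 23 transcription factors at 10 CPM, 10 were higher and 5 lower, beside 7.56% and 4.15% of all genes. But of 24 under TMM scaling 7 were higher and 9 lower, and 2 were lower with all UMIs in the total. Zbtb16, which encodes PLZF, a factor of innate-like T cells, was at 122 CPM in IR DN (113 to 133) and 0.271 CPM in IR CD8 (0.0328 to 0.978). This was 589 UMIs against 2, a ratio of 452 with a counting interval of 124 to 3739. Maf was at 379 CPM in IR DN (362 to 397) and 29.5 CPM in IR CD8 (25.7 to 33.7), 12.8-fold higher, and Rora at 379.8 and 70.1 CPM, 5.42-fold higher. Gata3, the factor of type 2 and early T cells, was at 299 and 104 CPM, 2.88-fold higher. Zbtb7b, which encodes ThPOK, the factor of the CD4 lineage, was at 45.7 CPM in IR DN (39.9 to 52.1) and 5.82 CPM in IR CD8 (4.21 to 7.84), 7.85-fold higher, with 43.3 CPM in IR CD4. Runx3, the factor of the CD8 lineage, was within 2-fold at 226 and 414 CPM. Tbx21, which encodes T-bet, was at 145 and 68.0 CPM, 2.13-fold higher, and under 2-fold with TMM scaling, with at least 3 Cd3 UMIs per cell or without the cells that held naive transcripts. Eomes was lower at 3.12 CPM in IR DN (1.74 to 5.14) and 33.0 CPM in IR CD8 (29.0 to 37.5), 10.6-fold lower, as was Id3, at 19.9 and 94.9 CPM.

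Genes of innate-like T cells were also measured outside the lists of factors. The invariant NKT markers Zbtb16, Trav11 and Trav11d summed to 129 CPM in IR DN and 0.271 in IR CD8, and most of this was Zbtb16. Trav11, the gene segment of the invariant α chain, had 30 UMIs in IR DN and 0 in IR CD8. In IR DN, Il4 was found in 11.7% of the 222 cells with Zbtb16 and in 5.55% of those without. Of the 9 listed γδ genes, 4 reached 10 CPM and all 4 were higher, beside 7.56% of all genes. They reached this level only in IR DN, so their direction follows from the limit. With no minimum CPM, 5 of 8 were higher and 1 was lower. Trgv2, a variable segment of the γ chain, was at 100.3 CPM in IR DN (91.6 to 109.7) and 7.99 CPM in IR CD8 (6.08 to 10.3), and the constant segment Tcrg-C4 at 108 and 3.25 CPM. Trdc, the δ chain that defines γδ cells, had 8 UMIs in IR DN and 32 in IR CD8, and Sox13 had 0 in both. Values of single γ segments are uncertain, since they are alike in sequence. The regulatory T cell factor Foxp3 had 0 UMIs in IR DN, which allows up to 0.623 CPM, and 3 in IR CD8. Of the other markers of these cells, Ikzf2, at 298 and 61.9 CPM, and Il2ra were higher and Ctla4 was within 2-fold. The 4 markers summed to 464 CPM in IR DN and 208 in IR CD8. The part of each of these cell types in the comparison was not tested.

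**Figure D4:**
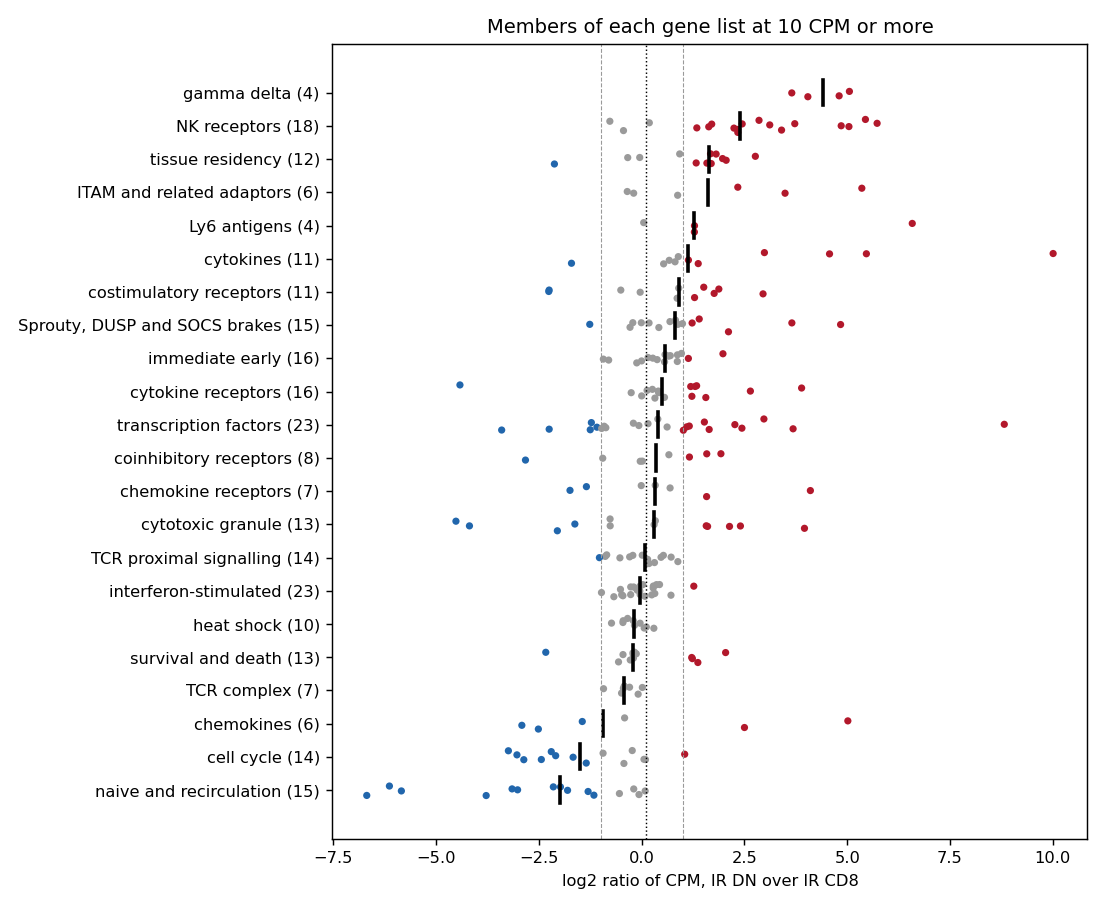
Log2 ratio of IR DN over IR CD8 for the members of each gene list at 10 CPM or more, 1 point per gene, with the median of each list as a black bar, 2-fold as dashed lines, the median of all genes as a dotted line and the number of members beside each name. The naive list has its median at -1.98 and the NK receptor list at 2.39, against 0.11 over all genes.

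Of 15 genes for feedback inhibitors of signalling at 10 CPM, 5 were higher and 1 was lower, beside 7.56% and 4.15% of all genes. The other 9 were within 2-fold, and the median log2 ratio of the 15 was 0.82. With all UMIs in the total, 9 of 13 were higher and none was lower. Spry2, which restrains MAP kinase signalling, was at 388 CPM in IR DN (371 to 406) and 30.9 CPM in IR CD8 (26.99 to 35.1), 12.6-fold higher in IR DN (11.0 to 14.5), and IR CD4 was at 48.7 CPM. Dusp1, a phosphatase of MAP kinases, was at 2851 CPM in IR DN (2804 to 2899) and 660.3 CPM in IR CD8 (642 to 679), 4.32-fold higher in IR DN (4.18 to 4.46). Socs2, which restrains cytokine signalling, was at 236 CPM in IR DN (223 to 250.3) and 8.26 CPM in IR CD8 (6.32 to 10.6), 28.6-fold higher in IR DN (22.1 to 37.6). Socs3 went the other way at 113 and 272 CPM, 2.40-fold lower, but was under 2-fold when all UMIs were counted in the total or when cells with naive transcripts were left out. Socs1 was within 2-fold at 392 and 395 CPM. Dusp1 was found in 66.9% of IR DN cells (65.5 to 68.4), 26.1% of IR CD8 cells (24.99 to 27.1) and 47.2% of IR CD4 cells after thinning, and in 84.5% and 43.4% of IR DN and IR CD8 cells without it.

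Programs common to stimulated or stressed cells are given beside the 11.7% of all genes that differed at least 2-fold, and no trait of these lists is read from their counts. Of 16 immediate early genes at 10 CPM, 14 were within 2-fold and 2 were higher, against 6 higher with all UMIs in the total. The 2 were Jun, at 2335 and 1063 CPM, which was under 2-fold with TMM scaling, and Atf3, at 111 and 28.3 CPM. Fos was at 2062 and 1589 CPM. All 10 heat shock genes at 10 CPM were within 2-fold, with Hspa8 at 1340.4 and 1832 CPM. Of 23 interferon-stimulated genes, 22 were within 2-fold and Isg20 was higher, at 107 and 44.3 CPM. In the last 2 lists the sign of the median changed with scaling, from -0.19 and -0.04 to 0.12 and 0.27 when all UMIs were counted. Cell cycle genes were low. Of 14 at 10 CPM, 8 were lower in IR DN and 1 higher. The number lower changed with the cells and weights used, and was 2 of 9 with the 5% of barcodes with most UMIs left out, 4 of 10 after thinning and 3 of 10 as a mean over cells. Mki67, the proliferation antigen, was at 3.12 and 16.9 CPM. Stmn1, a microtubule protein of dividing cells, was at 29.7 and 127 CPM, and Cdkn1a, the inhibitor p21, was higher at 69.6 and 33.7 CPM.

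The study named 10 genes for DN cells of normal kidney, and IR DN exceeded IR CD8 by at least 2-fold in all 10, with a median log2 ratio of 2.74. Without the cells that held Ccr7 or Lef1, 9 of them were higher. The study chose the 10 on this series, so their direction is not independent evidence. Its contrast was unlike this one, as it set DN cells against both CD4 and CD8 cells over single cells. By qPCR it found Kcnq5 and Klrb1c significantly higher in DN cells than in either. Kcnq5 (chromosome 1, 21398403 to 21961942), a voltage-gated potassium channel, was at 821 CPM in IR DN (795 to 847) and 48.1 CPM in IR CD8 (43.2 to 53.3), 17.1-fold higher in IR DN (15.3 to 19.1), with 380.0 CPM in IR CD4. It was found in 27.3% of IR DN cells (25.9 to 28.7), 2.12% of IR CD8 cells (1.78 to 2.50) and 11.99% of IR CD4 cells after thinning, and in 45.3% and 4.52% of IR DN and IR CD8 cells without it. The smallest difference of the 10 was that of Klrc1.

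The same pair of sorts from control kidneys was set beside these values. Those libraries were processed with another version of the counting software and were deeper, so that condition, version and depth cannot be told apart. Of 9012 genes at 10 CPM, 327 (3.63%) were higher in control DN than in control CD8 and 285 (3.16%) were lower. In both kidneys 246 genes were higher, which is 36.2% of those higher in ischemic and 75.2% of those higher in control kidney. Lower in both were 177 genes, or 47.5% and 62.1%. The NK receptors had a median log2 ratio of 2.12 in control kidney, with 16 of 20 higher, and the naive genes of -1.61, with 10 of 15 lower. Klrb1c was at 197 and 5.78 CPM in control DN and control CD8, and Ccr7 at 1.03 and 80.5 CPM.

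Other members passed 2-fold in ischemic and not in control kidney, but the difference between kidneys was not tested. The residency genes had a median log2 ratio of 0.65 in control kidney, with 3 of 12 higher. Cxcr6 was at 1122 and 659 CPM, a log2 ratio of 0.77 against 1.67 in ischemic kidney, and Rgs1 at 745 and 616 CPM, 0.28 against 1.59. Ifng was at 473 and 321 CPM, 0.56 against 1.37. The cytotoxic list had 1 gene higher and 5 lower of 12 in control kidney, and the coinhibitory list 1 higher and 6 lower of 9. Hbb-bs was at 0.43 and 0.272 CPM. No gene was at least 2-fold lower in ischemic and at least 2-fold higher in control kidney, and 2 genes, Tigit and Cd101, were the reverse.

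**Figure D5:**
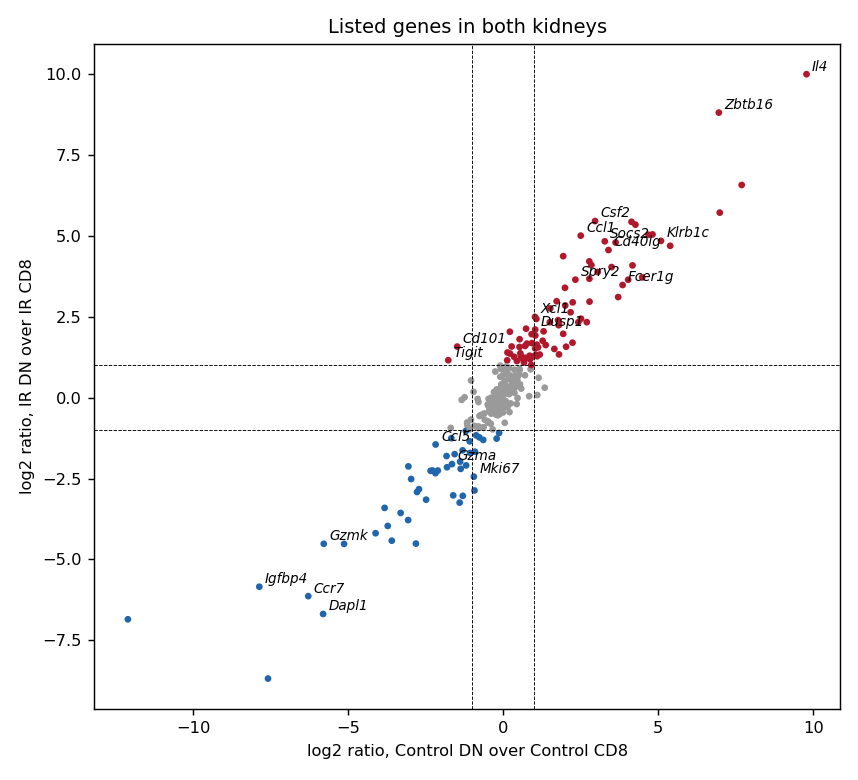
Log2 ratio of DN over CD8 for 273 listed genes in ischemic kidney (y axis) against control kidney (x axis), 1 point per gene and 1 library per group. Most genes called in both kidneys lie in the upper right or lower left, and Tigit and Cd101 lie above 1 in ischemic and below -1 in control kidney.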

How the data were processed

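Sorted kidney T cells had been profiled by droplet single-cell RNA sequencing. The authors counted UMIs per gene and barcode with Cell Ranger on the mm10 genome, and the deposited matrices hold raw counts with no normalization. The file headers name version 6.0.1 for IR libraries and 5.0.1 for control libraries, whereas the submitters' processing notes give 6.0.1. The study's methods give default settings for this step and do not name the counting of introns or the use of strand.

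Groups came from the sample titles, with 1 library per group. Barcodes were filtered as stated at the opening, with no doublet caller run, and the 5% of barcodes with most UMIs were left out only as an alternative. Counts were summed per library and scaled to CPM without 104 features (mitochondrial, ribosomal protein genes and Malat1). No significance test was possible. Intervals are exact Poisson for sums, exact conditional for ratios and Clopper-Pearson for shares. The floor of 3 counts was 0.623 and 0.406 CPM per library. Shares used cells thinned without replacement to 500 UMIs of the retained features, and no cell was shallower. TMM factors came from edgeR 4.0.16 (R 4.3.3), and all else from numpy 2.4.6, scipy 1.17.1 and pandas 2.3.3 (Python 3.11.15). The counting rules were tested on simulated data. Gene positions are from GENCODE M21 (mm10), where 32235 of 32285 features were matched by identifier.

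Named genes were the members of fixed lists (317 genes) and the 15 largest ratios each way at 50 CPM or more. Members and lists were chosen with earlier results of these data known. The alternatives were other scalings, barcode filters, minimum CPM and subsets of cells, and leaving out cells with Ccr7 or Lef1, or with genes of myelinating cells, was added after the data were seen. Some listed genes and 1 planned subset of cells are not reported here.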

Additional observations from a re-analysis of the deposited data

Results flagged for a closer look

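In 2 genes the ratio of DN over CD8 passed 2-fold in opposite directions in the 2 kidneys. Cd101, an inhibitory immunoglobulin family receptor, had a log2 ratio of 1.58 in ischemic kidney (33.6 against 11.2 CPM) and of -1.48 in control kidney (11.0 against 30.8 CPM). Tigit, a coinhibitory receptor, had 1.16 (31.8 against 14.2 CPM) and -1.77 (8.93 against 30.4 CPM), though its ratio in ischemic kidney was under 2-fold with at least 3 Cd3 UMIs per cell or without the cells that held Ccr7 or Lef1. Each group had 1 library, and the difference between kidneys was not tested. The genes were singled out after their values were seen.

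Barcodes left out by the filter held transcripts of myelinating cells in the ischemic libraries. The summed level of Mag, Ermn, Cldn11, Klk6 and Mobp, a set chosen after its values were seen, was 1468 CPM (1374 to 1567) in the 754 barcodes left out of IR DN and 889 CPM (833 to 948) in the 1543 left out of IR CD8. In the 577 left out of IR CD4 the level was 1129 CPM (1045 to 1218). It was 0 in the barcodes left out of control DN and control CD8, with upper limits of the 95% intervals at 13.9 and 5.02 CPM. In the 168 barcodes found in both IR DN and IR CD8 the level was 4244 CPM in IR DN and 4620 in IR CD8, with a UMI in 76 and 74 barcodes. In the 118 barcodes found in both control DN and control CD8 it was 0 and 0.598 CPM. Kept cells held 17.9 CPM in IR DN and 19.0 in IR CD8, from 10 and 20 cells with a UMI. Where these barcodes came from was not tested.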

How the results depend on the processing

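The minimum level moved the numbers of genes most among the alternatives run. With no minimum CPM, 2150 genes were higher and 1378 lower, and with 50 CPM 290 and 140, of which 7 were NK receptors against 15 of them at 10 CPM. With all UMIs in the total, 186 genes were lower. Without the cells that held Ccr7 or Lef1, a choice made after seeing the data, 7 naive genes were lower against 11. In those settings the cause was not tested beyond their construction, which changes the genes or cells compared. Under the other alternatives the numbers of higher and lower genes stayed within 1.5 times of 680 and 373. Of 94 genes followed across scalings and subsets of cells, none called higher became lower or the reverse where it had a value, but 15 of 92 were under 2-fold without the cells that held Ccr7 or Lef1. Leaving out cells with genes of myelinating cells, also chosen after seeing the data, gave 685 and 369. No paired analysis was possible because each group had 1 library.

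Depth limits these data. A count of 0 in IR DN allows up to 0.623 CPM, and intervals hold no spread between mice. The 2 sorts were single libraries, the cells per mouse are unknown, and ribosomal protein genes took unequal shares of UMIs. Genes within 2-fold cannot be ordered against the scaling, which moved the median ratio of all genes tested by -0.17 or 0.32.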

Other observations

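The Ly6 surface antigens and the genes of cell survival were measured in the same libraries. Of 4 Ly6 genes at 10 CPM, 3 passed 2-fold in favour of IR DN, beside 7.56% of all genes, and none was lower. Ly6a, which encodes Sca-1, was at 273 CPM in IR DN and 112 in IR CD8, under 2-fold without the cells that held Ccr7 or Lef1, and Ly6e at 1770.3 and 729 CPM. Ly6c1 had 312 UMIs in IR DN and 5 in IR CD8, whereas its close relative Ly6c2 was at 914 and 884 CPM. After thinning, Ly6c1 was found in 3.34% of IR DN, 0.0312% of IR CD8 and 4.10% of IR CD4 cells. The values of both genes are uncertain, since Ly6c1 and Ly6c2 are alike in sequence.

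Of 13 survival and death genes, 4 were higher in IR DN and 1 was lower, beside 7.56% and 4.15% of all genes. The other 8 were within 2-fold, and the sign of the list's median, -0.20, became 0.11 with all UMIs in the total. Without the cells that held Ccr7 or Lef1, 2 were higher. Bcl2l1, which encodes the survival protein Bcl-xL, was at 75.4 CPM in IR DN and 32.1 in IR CD8. Bcl2l11, which encodes its antagonist Bim, was also higher, at 384 and 165 CPM. Pmaip1, which encodes the death-promoting Noxa, was lower, at 6.23 and 31.4 CPM. Bcl2 itself was within 2-fold at 446 and 504 CPM. Of 85 ribosomal protein genes at 10 CPM of all UMIs, 82 had a log2 ratio below 0, with a median of -0.58, and 3 were at least 2-fold lower in IR DN. In control kidney 73 of 85 were below 0, with a median of -0.48. Signs under 2-fold are not read as a direction.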
